A study of Rattus norvegicus with 12 samples.

Results

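MiR-338, its antisense neighbour miR-3065 and miR-219a were followed in aortas of female rats of the spontaneously hypertensive (SHR) strain, inbred for high blood pressure. All mature arms of these 3 miRNA names in the deposited table were taken, which gave 6 of its 641 miRNAs: rno-miR-338-5p, rno-miR-338-3p, miR-3065-3p, miR-219a-1-3p, miR-219a-2-3p and miR-219a-5p (the rat prefix rno- is left out from here on). Small RNA had been sequenced in 12 samples, 6 labelled saline (the controls) and 6 labelled EWH, in a series whose title speaks of peptides derived from egg white. The labels used here give no dose, duration or age. Nor do they tie each sample to an animal of its own, so p-values reflect the spread between samples, which may be technical. The comparison asks which miRNAs of the aorta differ between EWH and saline.

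MicroRNAs are cut from hairpin precursors, and either arm of a hairpin (5p or 3p) can be loaded into the silencing complex, which finds target messages mainly through the seed, bases 2 to 8 of the mature miRNA. MiR-219a-5p and miR-338-3p are the miRNAs best known for driving oligodendrocyte precursors to exit the cell cycle and form myelin. MiR-338 lies in the gene Aatk, which encodes a kinase of nervous tissue, and it is also known from Schwann cells and from axons of sympathetic neurons. The aorta carries such nerve fibres in its outer layer, mixed with a far larger mass of smooth muscle.

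The mature sequences show how the members are related, and are given 5′ to 3′ from RefSeq's GRCr8 assembly with the seed in capitals (all 6 members matched by name). GRCr8 is not the build of the data, rn6, and served for sequences, names and neighbours.
miR-338-5p: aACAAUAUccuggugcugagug
miR-338-3p: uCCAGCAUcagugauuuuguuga
miR-3065-3p: uCAGCACCaggauauuguugggga
miR-219a-5p: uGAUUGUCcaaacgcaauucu
miR-219a-1-3p: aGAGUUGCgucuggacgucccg
miR-219a-2-3p: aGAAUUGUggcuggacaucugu
The 6 seeds all differ, and none of them occurs in another rat mature miRNA of that RefSeq table, so no member shares a seed family with another miRNA measured here. The miR-338 hairpin (chr10:105796342-105796407, minus strand, GRCr8) lies within Aatk on the same strand. The miR-3065 hairpin (chr10:105796325-105796427, plus strand, GRCr8) covers it from the opposite strand. MiR-338-5p and miR-3065-3p overlap by 19 bases as exact reverse complements, whereas read in the same direction they share no run longer than 4 bases. The strand setting of the authors' counting is not given in the sources used here, and without it reads of the 2 overlapping miRNAs cannot be told apart by position. MiR-219a comes from 2 hairpins, miR-219a-1 (chr20:4831580-4831689, plus strand, GRCr8), whose nearest non-miRNA gene is Ring1, and miR-219a-2 (chr3:33516504-33516599, minus strand, GRCr8), which lies within Cercam, on the opposite strand, and within LOC120101515, a long non-coding RNA gene on its own strand.

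The deposited values are in reads-per-million units (rpm) of a library total of 23887799 to 24772944 reads, of which the listed miRNAs took 76.4% to 80.6%. One read was worth 0.0404 to 0.0419 rpm, and a value of 0 allows up to 0.121 to 0.126 rpm (3 reads, counting error only). Of the 6 members, 4 passed the filter on low values (1 rpm or more in 6 or more libraries, passed by 303 of the 641 miRNAs) and entered the test. These were both miR-338 arms, miR-3065-3p and miR-219a-1-3p. The members thus ran from moderate to nearly undetected, with miR-338-5p ranking between 72nd and 141st of the 641 in a library.

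MiR-338-5p, the arm less studied in myelination, was at a higher mean in EWH. It read 29.4, 48.4, 48.0, 20.3, 25.9 and 36.4 rpm in controls 1 to 6 and 54.6, 26.2, 170.1, 246.2, 109.8 and 108.9 rpm in EWH 1 to 6. EWH 1, 3, 4, 5 and 6 lay above every control and EWH 2 lay among the controls. The means were 34.7 ± 11.7 rpm with saline and 119 ± 79.7 rpm with EWH (SD, n = 6 a group). On the log2(rpm + 1) scale this was a log2 fold change of 1.49 (SE 0.47, 95% interval 0.48 to 2.50), or 2.81-fold.

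MiR-338-3p, the arm with the known role in myelin formation, followed the same libraries. It read 18.9, 47.1, 39.8, 17.8, 18.7 and 22.6 rpm in controls 1 to 6 and 38.7, 23.9, 124.7, 204.7, 75.9 and 76.6 rpm in EWH 1 to 6. Here 4 of 6 EWH libraries lay above every control, while EWH 1 and EWH 2 lay within the control range. The means were 27.5 ± 12.7 rpm with saline and 90.7 ± 65.9 rpm with EWH (SD, n = 6 a group). The log2 fold change was 1.47 (SE 0.47, 95% interval 0.45 to 2.48), or 2.76-fold. At least 4 EWH libraries lay above the highest control for 12.5% of all tested miRNAs, so this placement alone was not rare in the data.

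**Figure D1:**
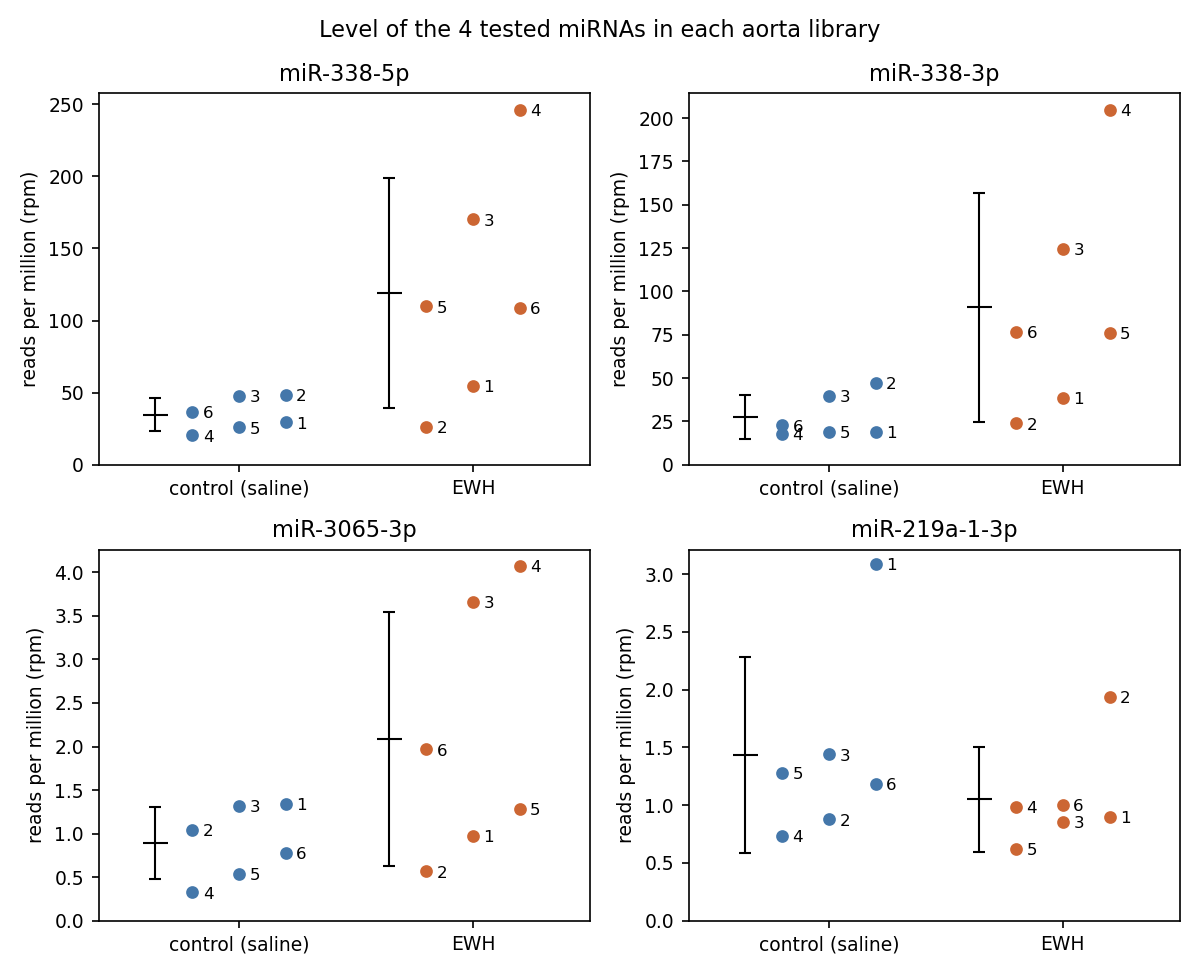
Level in rpm (vertical axes, linear, from 0) of the 4 tested miRNAs in each library, with controls in blue, EWH in orange, replicate numbers beside the points, and the mean ± SD of each group as a bar to the left of its points. For both miR-338 arms and miR-3065-3p, EWH 4 and EWH 3 are the highest points and EWH 2 lies within the control range, while miR-219a-1-3p has its highest point in control 1.

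Neither arm passed the test over all miRNAs. By limma with Benjamini-Hochberg adjustment, adjusted p = 0.129 for miR-338-5p and for miR-338-3p, where 0% of the 303 tested miRNAs passed at 0.05. An exact permutation test of each arm on its own, two-sided and with no adjustment, gave p = 0.017 and 0.019. Both arms were among the 46 (15.2%) of tested miRNAs that were higher in EWH at an unadjusted limma p under 0.05. With edgeR's quasi-likelihood test, run on whole reads recovered from the rpm values, both passed (Benjamini-Hochberg adjusted p = 0.031 each, log2 fold change 1.75 and 1.68), among 11.2% of tested miRNAs called higher. DESeq2 called both arms and miR-3065-3p (Benjamini-Hochberg adjusted p = 7.1e-04, 0.0016 and 0.049), among 15.2% called higher.

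The size of the difference depended on EWH 3 and EWH 4, which stood apart from the other libraries across the profile. On the first principal component of the tested miRNAs with the members left out (45.2% of the variance) they lay at 11.7 and 15.9, and the other 10 libraries lay between −7.83 and 4.79. Without these 2, a choice made because they stood apart, the EWH mean was 74.9 rpm for miR-338-5p and 53.8 rpm for miR-338-3p. The log2 fold changes were then 0.94 and 0.90 (limma, Benjamini-Hochberg adjusted p = 0.358 each; edgeR adjusted p = 0.200 and 0.228). EdgeR called both arms in 6 of 12 fits with 1 library left out, and its call ended without control 1, 4, 5 or 6 or EWH 3 or 4 (Benjamini-Hochberg adjusted p = 0.063 to 0.076). Where the call ended, edgeR called 0 of all tested miRNAs, while in the other fits it called 27 to 45, so the loss was not particular to miR-338. Without EWH 2 both arms passed limma (Benjamini-Hochberg adjusted p = 0.035 and 0.036, log2 fold change 1.85 and 1.78). They were among 24 of all tested miRNAs that limma called in that fit. The direction of both miR-338 arms was the same in each of these fits.

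**Figure D2:**
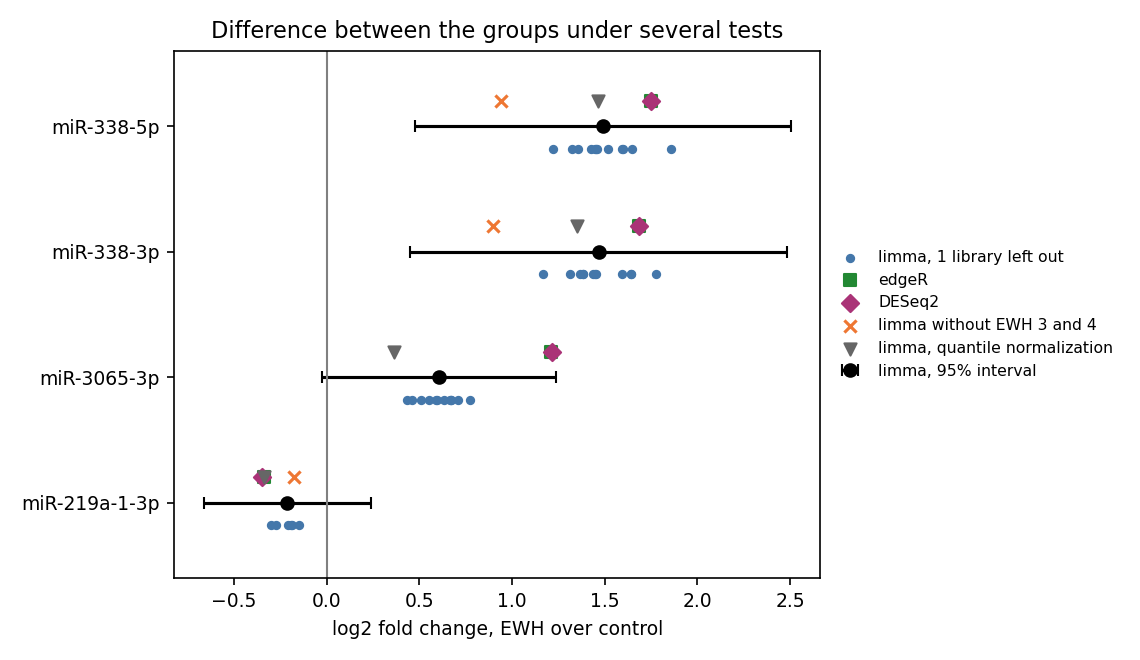
Log2 fold change of EWH over control (horizontal axis) for the 4 tested miRNAs, with the limma estimate and its 95% interval in black, limma with each library left out in turn as blue points below it, and other tests or library sets above it. Both miR-338 arms stay above 0 in every setting shown and shrink most without EWH 3 and 4, the miR-3065-3p interval includes 0, and miR-219a-1-3p lies just below 0. MiR-3065-3p has no value without EWH 3 and 4, since it then misses the filter, and miR-219a-1-3p has 6 leave-one-out values for the same reason.

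The 2 arms of the miR-338 hairpin kept close to each other. The 5p arm was the higher one in 12 of 12 libraries, by a ratio of 1.03 (control 2) to 1.61 (control 6), with a median of 1.38. The ratio was 1.32 ± 0.23 with saline and 1.32 ± 0.14 with EWH (SD, n = 6 a group). The group difference in log2((5p + 1)/(3p + 1)) was 0.025 (SE 0.13, 95% interval −0.26 to 0.31; limma, Benjamini-Hochberg adjusted p = 0.910 over 67 hairpins). None of the 67 ratios passed (0%), and 13 of them (19.4%) had an unadjusted limma p under 0.05. The interval is for the difference of the group means and sets no upper limit on a shift of the arms. Single libraries had log2((5p + 1)/(3p + 1)) from 0.041 (control 2) to 0.66 (control 6). A higher 5p arm in all libraries was found for 38 of the 67 hairpins and a higher 3p arm for 22.

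**Figure D3:**
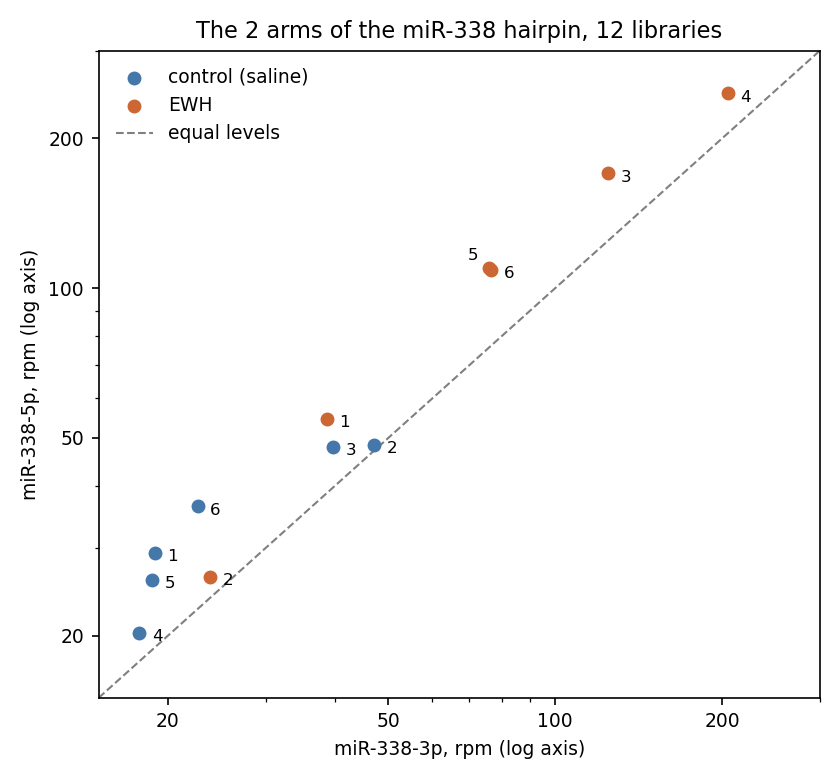
MiR-338-5p against miR-338-3p in rpm (both axes logarithmic) for the 12 libraries, with controls in blue, EWH in orange, replicate numbers beside the points and a dashed line where the arms are equal. All 12 points lie above the line, and they run parallel to it from control 4 at the lower end to EWH 4 at the upper end.

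Across the 12 libraries the log2(rpm + 1) values of the 2 arms had Pearson r = 0.985 and Spearman rho = 0.951 (permutation p = 2e-05 for each, the smallest these permutations can give, and 6e-05 after Benjamini-Hochberg adjustment over the 3 member pairs examined). Without EWH 3 and EWH 4, r was 0.966. Within the groups r was 0.914 in control and 0.991 in EWH (n = 6 each). Since both arms come from 1 hairpin and 1 library, they are not separate observations of the group difference.

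MiR-3065-3p, cut from the opposite strand of the same locus, was low and had the same libraries at the top. It read 1.34, 1.04, 1.32, 0.33, 0.54 and 0.78 rpm in controls 1 to 6 and 0.98, 0.57, 3.66, 4.08, 1.29 and 1.97 rpm in EWH 1 to 6, from 8 to 99 reads a library. EWH 3, 4 and 6 lay above every control and the other 3 EWH libraries did not. The means were 0.89 ± 0.42 rpm and 2.09 ± 1.46 rpm (SD, n = 6 a group). The log2 fold change was 0.61 (SE 0.29, 95% interval −0.025 to 1.24; limma, Benjamini-Hochberg adjusted p = 0.230), and the pseudocount of 1 shrinks the change of an miRNA at this level. The edgeR estimate from reads was 1.21 (Benjamini-Hochberg adjusted p = 0.101).

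MiR-3065-3p reached 1.60% to 4.56% of the miR-338-5p value in control and 1.17% to 2.15% in EWH. Its log2(rpm + 1) values had Pearson r = 0.921 (permutation p = 1e-04, adjusted 1.5e-04 by Benjamini-Hochberg) and Spearman rho = 0.825 (permutation p = 0.0015, adjusted 0.0023) with those of miR-338-5p over the 12 libraries, and r was 0.809 without EWH 3 and EWH 4. Whether some of its reads came from the opposite strand was not tested.

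MiR-219a, the other miRNA of myelin formation, was barely detected, apart from 1 arm that was not at a higher mean in EWH. MiR-219a-5p, the arm with the known role in oligodendrocytes, had 1 read in control 2, 1 in EWH 3 and 2 in EWH 4, and none in the other 9 libraries. MiR-219a-2-3p had 3 reads, all in EWH 4. Both lie at or under the value that 3 reads give, so no fold change is given, and with no filter on low values their limma adjusted p (Benjamini-Hochberg) was 0.694 for the first and 0.628 for the second. MiR-219b, cut from the strand opposite to miR-219a-2 and no member of the set, reached at most 0.288 rpm (EWH 4, 7 reads).

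MiR-219a-1-3p, an arm of the other hairpin, was the best detected of the 3, at 15 to 76 reads a library. It read 3.09, 0.88, 1.44, 0.73, 1.28 and 1.19 rpm in controls 1 to 6 and 0.90, 1.94, 0.85, 0.99, 0.62 and 1.005 rpm in EWH 1 to 6. All EWH libraries lay within the control range apart from EWH 5, which was lowest of the 12. The means were 1.43 ± 0.85 rpm and 1.05 ± 0.46 rpm (SD, n = 6 a group), and without control 1 the control mean was 1.10 rpm. The log2 fold change was −0.21 (SE 0.21, 95% interval −0.66 to 0.24; limma, Benjamini-Hochberg adjusted p = 0.577). With miR-338-5p it had Pearson r = −0.438 and Spearman rho = −0.420 (permutation p = 0.123 and 0.174, the same after Benjamini-Hochberg adjustment), and −0.438 without EWH 3 and EWH 4. Of the arms introduced for myelin formation, miR-338-3p was thus well above the filter, while the defining oligodendrocyte arm miR-219a-5p was at or near 0 in both groups. Which cells the miR-338 reads came from was not tested.

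To place the miR-338 difference beside other miRNAs, the ratio of each arm to 5 comparators was compared by exact permutation of the group labels (two-sided, over every assignment of 6 labels a group), with the 10 tests adjusted together. Relative to miR-128-3p, a neuron-enriched miRNA that is also widely expressed, both arms were higher in EWH. The log2 ratio differed by 1.62 for the 5p arm and 1.59 for the 3p arm (exact permutation p = 0.0065 and 0.0043, adjusted p = 0.032 each), with 5 of 6 EWH libraries above every control. That call ended without EWH 3 and 4 together (1.11 and 1.07, exact permutation test, adjusted p = 0.095 each) and in 6 of 12 sets with 1 library left out (without control 1, 2, 4 or 6 or EWH 3 or 4; exact permutation, adjusted p = 0.054 to 0.065). MiR-128-3p itself averaged 770 ± 264 rpm with saline and 683 ± 126 rpm with EWH (SD, n = 6 a group), a log2 fold change of −0.13. The ratio difference is thus mostly the miR-338 difference over again, and is not separate support for it. The adjustment covers only the 10 ratio tests, which use both arms of 1 hairpin and comparators chosen with earlier results known. Over all tested miRNAs neither arm passed limma.

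Relative to miR-143-3p, the dominant smooth muscle miRNA, the difference was 1.54 and 1.51 (exact permutation p = 0.028 and 0.030, adjusted p = 0.076 each). MiR-143-3p also differed little itself (log2 fold change −0.045), so this ratio too mostly repeats the miR-338 difference. The remaining 3 comparators were themselves at higher means in EWH. The ratio to miR-9a-5p, a miRNA of neural progenitors and neurons, differed by −0.18 and −0.20 (exact permutation, adjusted p = 0.104 and 0.245). The ratio to miR-204-5p, expressed in the choroid plexus, eye and other tissues, differed by 0.11 and 0.085 (exact permutation, adjusted p = 0.852 each). For miR-127-3p of the imprinted Dlk1-Dio3 region the differences were −0.0080 and −0.033 (exact permutation, adjusted p = 0.981 each). These tests did not separate the miR-338 difference from that of miR-9a-5p, miR-204-5p or miR-127-3p, which does not show that the differences are equal.

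**Figure D4:**
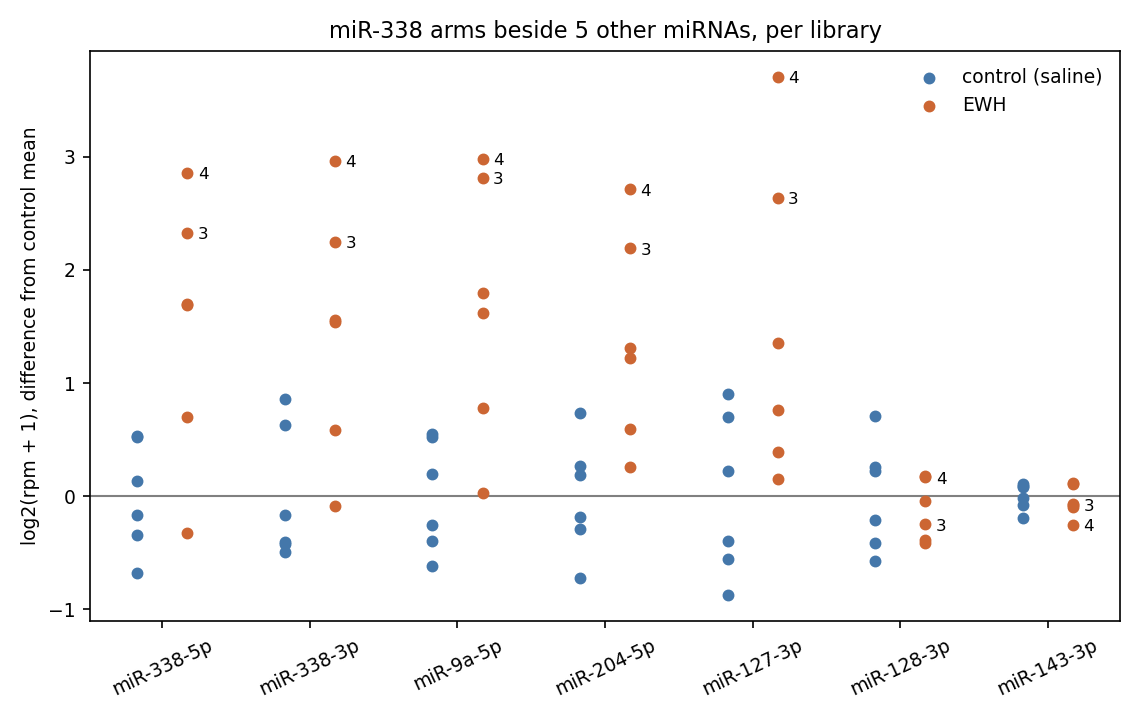
Difference of log2(rpm + 1) from the control mean (vertical axis) for both miR-338 arms and 5 comparator miRNAs in each library, with controls in blue, EWH in orange and EWH 3 and EWH 4 numbered. EWH 4 and EWH 3 lie highest for miR-338, miR-9a-5p, miR-204-5p and miR-127-3p, while miR-128-3p and miR-143-3p show no such spread.

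The miRNAs whose log2(rpm + 1) profile over the 12 libraries was most like miR-338 were the same for both arms in 7 of 8 cases. These were miR-9a-5p, miR-325-5p, miR-384-5p, miR-384-3p, miR-495, miR-323-3p and miR-382-5p, with miR-410-3p added for the 5p arm and miR-300-3p for the 3p arm. Pearson r ran from 0.955 to 0.991, and from 0.923 to 0.986 with group means removed, as a description of libraries that share EWH 3 and EWH 4 as extremes. The closest to the 5p arm was miR-9a-5p (r = 0.991), at 64.2 ± 21.8 rpm with saline and 250 ± 175 rpm with EWH (SD, n = 6 a group). The closest to the 3p arm was miR-325-5p (r = 0.986), at 2.20 ± 1.04 rpm and 9.32 ± 7.11 rpm (SD, n = 6 a group). In each of the 9, EWH 3 and EWH 4 were the highest libraries.

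Other miRNAs known from glia, Schwann cell injury or myelination did not share one direction. Of 20 tested arms from 14 hairpins, 6 were higher and 14 lower in EWH (median log2 fold change −0.25), beside 121 higher, 182 lower and a median of −0.058 over all 303 tested. Their summed level was 17328 to 24457 rpm with saline and 14714 to 19044 rpm with EWH. Most of it was miR-27a-3p and miR-21-5p (means of 7879 and 7380 rpm with saline), so the sum says little about the other members or about glia. None of the 20 passed limma. EdgeR called 3 of the 20 higher (miR-9a-5p, miR-204-5p and miR-204-3p) and 1 lower (miR-27a-5p), where it called 11.2% of all tested miRNAs higher and 1.98% lower. DESeq2 called 4 higher (the same 3 and miR-9a-3p) and 4 lower (miR-27a-5p, miR-140-3p, miR-29a-3p and miR-19b-3p), where it called 15.2% of all tested miRNAs higher and 5.61% lower. All arms called higher were of miR-9a or miR-204, which were introduced above for other cells and tissues. Which cells their reads came from was not tested. Without EWH 3 and 4 edgeR called 0 of all tested miRNAs (46 at an unadjusted p under 0.05). MiR-138-5p, raised with miR-219 and miR-338 in maturing oligodendrocytes, missed the filter, at 0.34 ± 0.32 rpm with saline and 2.36 ± 2.85 rpm with EWH (SD, n = 6 a group). MiR-140-5p, known from Schwann cells, averaged 1035 ± 109 and 876 ± 114 rpm, and miR-29a-3p, which represses a peripheral myelin protein, 709 ± 112 and 568 ± 68.8 rpm (SD, n = 6 a group; limma, Benjamini-Hochberg adjusted p = 0.181 and 0.163).

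Markers of other cells were read beside the miR-338 values. In the neuron list 8 of 23 listed members were tested and 5 of the 8 were higher, with a median log2 fold change of 0.11 (−0.12 without EWH 3 and 4), and none passed limma. EdgeR called 1 of the 8 higher (miR-7b), beside 11.2% of all tested, and DESeq2 called 2 (miR-7b and miR-129-5p), beside 15.2%. MiR-7b went from 1.52 ± 1.61 to 31.6 ± 53.1 rpm and miR-129-5p from 9.69 ± 11.8 to 59.8 ± 68.0 rpm, saline first (SD, n = 6 a group). The summed level of the list was 970 to 1932 rpm in control and 964 to 2619 rpm in EWH, highest in EWH 4. Most of the sum was miR-128-3p and miR-218a-5p (means of 770 and 442 rpm with saline), so it says little about the lower members. The neuronal miR-124-3p was under the filter, at 0.19 ± 0.22 rpm with saline and 1.71 ± 1.97 rpm with EWH (SD, n = 6 a group). The part that neuronal RNA has in the miR-338 values was not tested.

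For smooth muscle the summed level was 347013 to 426858 rpm in control and 331968 to 428677 rpm in EWH, and for endothelium 3290 to 12305 and 4264 to 6913 rpm. For erythrocytes it was 80.4 to 364 and 119 to 385 rpm, and for leukocytes 92.7 to 238 and 108 to 195 rpm. Skeletal and cardiac muscle miRNAs summed to 429 to 1368 and 714 to 1439 rpm, epithelial ones to 64.4 to 729 and 82.7 to 373 rpm, and those of fat to 121 to 1631 and 135 to 448 rpm. The 2 groups overlapped in each of these sums. Median log2 fold changes were −0.11, −0.13, 0.0064, −0.24, −0.14, −0.30 and −0.54 in the same order, and none of the members passed limma. Of the 7 tested epithelial members edgeR called 2 lower (miR-200a-3p and miR-200b-3p), beside 1.98% of all tested. DESeq2 called 3 lower (the same 2 and miR-200c-3p), beside 5.61%, and 1 higher (miR-375-3p), beside 15.2%. The miR-200 controls were uneven. With saline miR-200b-3p was at 125 ± 196 rpm and miR-200a-3p at 29.5 ± 35.7 rpm, against 6.87 ± 2.83 and 5.31 ± 2.19 rpm with EWH (SD, n = 6 a group). Of the 5 tested muscle members DESeq2 called 1 higher, miR-1-3p (Benjamini-Hochberg adjusted p = 0.0188), beside 15.2% of all tested. Its level was 394 ± 238 rpm with saline and 807 ± 273 rpm with EWH (SD, n = 6 a group). EdgeR called 0 of the 5, where it called 11.2% of all tested higher and 1.98% lower. In the other 5 of these lists both tools called 0 members. In tissue samples such as these, fewer cells of a type and less RNA per cell cannot be told apart.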

How the data were processed

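The authors deposited 1 table of 641 rat miRNAs in 12 libraries. Its values, though named for another unit, are reads scaled to a library total (RPM) as deposited: dividing by the smallest step of a library gave whole reads for 100% of values within 0.01 read. Per the labels' protocols, adaptors were ligated to Trizol-extracted RNA and inserts of 15 to 35 nt were taken, and per the submitters' processing notes the build was rn6. For the aligner, counter and miRNA annotation nothing is stated in the labels, nor are molecular identifiers. Columns were matched through sample descriptions and groups through the treatment label. All 30 pairs of libraries within a group differed beyond sampling noise (chi-square over its degrees of freedom at least 119).

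MiRNAs with at least 1 rpm in 6 libraries were tested as log2(rpm + 1) with limma 3.58.1 under R 4.3.3, with a variance trend and two-sided. P-values were adjusted by Benjamini-Hochberg over all tested, with a threshold of 0.05; edgeR 4.0.16 and DESeq2 1.42.0 were run on the recovered reads. A fold change on the log2(rpm + 1) scale understates the change of low miRNAs. Alternatives were other filters (none, 10 rpm), pseudocounts (0.1, 5), scalings, variance models, the replicate number as a block, and each library left out with the filter reapplied. After the data had been seen, fits without EWH 3 and 4, and edgeR with 1 library fewer, were added. Procedures were tested on simulated counts drawn separately for each miRNA, with the same spread setting for all. The simulation held no libraries set apart across the profile, so it cannot show how the tests behave with EWH 3 and 4. Named miRNAs were the members, 5 comparators, the 8 nearest profiles of each miR-338 arm, and members of cell type lists (not all are printed); miR-7b, miR-124-3p, miR-129-5p, miR-200a-3p, miR-200c-3p and miR-219b were named after their values were seen. The members, comparators and lists were chosen with earlier results of these data known.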

Additional observations from a re-analysis of the deposited data

Results flagged for a closer look

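Of 13 groups of 6 values examined, 4 held a library far from the rest by Dixon's test, which divides the gap to the nearest value by the range. Among the 11 groups with at least 2 values above 0 there were 2 such libraries, both for miR-219a-1-3p, where chance gives about 1 in 20 groups. MiR-219a-1-3p was highest among controls in control 1 at 3.09 rpm, where the next was 1.44 rpm, and highest in EWH in EWH 2 at 1.94 rpm, where the next was 1.005 rpm. In the other 2 groups 1 library had reads and the rest were at 0, so that the gap equals the range by construction and the chance rate does not apply. MiR-219a-5p was at 0.042 rpm in control 2 (1 read) and listed at 0 in the other controls. MiR-219a-2-3p was at 0.123 rpm in EWH 4 (3 reads) and listed at 0 in the other EWH libraries. None of the miR-338 or miR-3065-3p values was set apart in this way.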

How the results depend on the processing

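Both miR-338 arms were higher in EWH under every setting run. They passed under edgeR (1.75 and 1.68, 5p first) and DESeq2 (1.75 and 1.68), but not with other filters, pseudocounts, scalings or variance models. With 1 library left out the limma log2 fold change ran from 1.22 to 1.85 for miR-338-5p and from 1.17 to 1.78 for miR-338-3p, and that of edgeR from 1.499 to 1.94 and from 1.37 to 1.89; without EWH 3 and 4 edgeR gave 1.17 and 1.04. MiR-3065-3p passed under DESeq2 only (1.22). The arm ratio difference ran from −0.041 to 0.084 with 1 library left out. Ratios to miR-128-3p ran from 1.40 to 1.92 (5p) and from 1.35 to 1.85 (3p), and were 1.11 and 1.07 without EWH 3 and 4. Ratios to miR-143-3p ran from 1.22 to 1.93 and from 1.17 to 1.86, passing without EWH 2 for both arms and without EWH 1 for the 3p arm. The 5p ratio to miR-9a-5p ran from −0.23 to −0.12 and passed without EWH 6, and the 3p ratio to miR-204-5p ran from −0.034 to 0.20. Ratios to miR-127-3p ran from −0.20 to 0.16 and from −0.20 to 0.11, and were 0.28 and 0.23 without EWH 3 and 4. The cause of these changes was not tested.

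Of all tested miRNAs limma called 0, with 70 at an unadjusted p under 0.05. It called 8 after quantile normalization, 1 without EWH 3 and 4, and 0 to 24 with 1 library left out, while edgeR called 40 (0 to 45 with 1 library left out, 0 without EWH 3 and 4) and DESeq2 63. Counts at an unadjusted p under 0.05 were 116 with no filter, 37 at 10 rpm, 43 to 72 with 1 library left out by limma (68 to 85 by edgeR), and 38 (limma) and 46 (edgeR) without EWH 3 and 4. With the replicate block the log2 fold changes were the same, with adjusted p = 0.225 (limma, Benjamini-Hochberg) for both miR-338 arms and 57 miRNAs at an unadjusted p under 0.05, and no member's call changed. Samples share only a number: 3 of 6 same-numbered pairs had a correlation of deviations over 0.1, and 0 of 6 controls correlated best with their own number. Depth limits miR-219a-5p and miR-219a-2-3p, at 0 to 3 reads a library.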
